A study of Mus musculus with 15 samples.

Results

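Brain RNA of APP/PS1 mice at the later ages of the study, 6 and 9 months, was compared with brain RNA of APP/PS1 mice at the earlier ages, 1 and 3 months. The samples were chosen by age and genotype alone. Of the 15 samples of the series, 12 are from APP/PS1 mice, 3 at each age, and each has the scan of a one-colour Agilent array that carries probes for long noncoding RNAs and some mRNAs. In 3 pairs (replicates 2 and 3 at 1, 3 and 6 months) the median difference was 0.189 to 0.244 times the error given by the scanner software, against 0.505 to 0.844 times in the other pairs of one age, and each of the 3 pairs was counted as 1 sample. Whether such a pair is 2 hybridisations or 2 scans of 1 array is not given in the sources used here, and counts of arrays below include both. This left 9 samples: 4 early (2 at 1 month and 2 at 3 months) and 5 late (2 at 6 months and 3 at 9 months). All carry the APP/PS1 genotype on a strain background labelled C57BL, and the labels name 1 male and 2 females per age, while the design text names males. The labels give neither the promoters of the transgenes nor whether mice were littermates. No wild-type array entered, since the labels give no age for those mice, so a difference between stages is one of age within this genotype, and what ageing without the transgenes would give was not tested. The design text gives 3 mice per age, and p-values measure the spread between the samples as counted here.

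APP/PS1 mice carry a mutant human amyloid precursor protein and a mutant presenilin, the catalytic subunit of the enzyme that releases amyloid-beta peptide. Plaques build up in the cortex and hippocampus with age and are followed by activation of microglia and astrocytes. Long noncoding RNAs are transcripts without a protein product, some of which act on nearby genes, and many are expressed in few cell types of the brain.

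The unit used throughout is the log2 of the processed spot signal minus the 75th percentile of that array, so that 0 is a bright probe at that percentile and a difference of 1 is a doubling of signal. The 75th percentile itself ran from 384 to 492 intensity units on the early arrays and from 446 to 566 on the late arrays, and 68.3% to 82.4% of spots were well above background. None of the 37 brain cell type markers and none of the 16 amyloid and plaque-induced genes of the lists is named on these arrays, so neither the tissue label nor the transgenes could be checked, and a change in the mix of cells cannot be told apart from a change within them. All 9-month arrays were scanned at a detector setting of 354 V, while the other ages used 356 V for replicates 1 and 2 and 355 V for replicate 3. The scan setting and the age of 9 months therefore cannot be told apart, and the 6-month samples give the comparison with the early ages within a shared setting. On the first principal component (38.8% of the variance) the 9-month samples lay at 78.6 to 88.7 and all others between -60.1 and -18.0.

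Late and early APP/PS1 brain differed in 3774 of 45842 features tested (8.23%) at a limma adjusted p under 0.05. Of these, 2050 (4.47%) were higher and 1724 (3.76%) lower at the late ages. Which direction held more calls depended on the scaling: 54.3% of the calls were higher here, and 46.6% to 48.5% under other scalings. Percentages in brackets, here and in the next paragraph, are shares of the 45842 features tested. In 3678 of the 3774 called (8.02% of those tested) the 5 late and the 4 early samples did not overlap. Over all features 7220 (15.7%) did not overlap, 3743 (8.17%) with the late samples above and 3477 (7.58%) with them below. Over all 45842 features, called or not, most differences were small: 1846 differed by more than 1 and 325 by more than 2 on the log2 scale. The median difference was 0.02 with its sign, and 0.23 without it. With the scan setting as a block, which set the 9-month arrays apart from the others, 4112 features were called (2022 higher and 2090 lower). Within the samples of the 356 V arrays 1588 were called (616 higher and 972 lower). Both fits leave the late stage to 6 months, so neither gives both late ages against early with the scan setting adjusted. With 6 months alone against the early samples, 1636 were called. The count of 3774 also depended on single samples. It was 1450 and 1411 without replicate 1 or replicate 2 at 1 month, 2467 and 2214 without either at 3 months, and 1934, 1649 and 1635 without replicates 1, 2 or 3 at 9 months.

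The ages of a stage were not alike. Of the sum of squares over all features, 28.7% lay between the stages, 43.2% between the ages within a stage and 28.1% between samples of one age. These sums rest on unlike numbers of stages, ages and samples, so their sizes do not rank the sources of spread. In a fit with 4 ages, 3 months differed from 1 month in 6722 features (14.7%) and 9 months from 6 months in 10935 (23.9%), of which 5369 (11.7%) were higher and 5566 (12.1%) lower at 9 months. The 6-month samples differed from the early samples in 8863 features (19.3%), of which 4924 (10.7%) were higher and 3939 (8.59%) lower. The 9-month samples differed from the same early samples in 16767 features (36.6%), of which 8664 (18.9%) were higher and 8103 (17.7%) lower. This fit leaves the spread between 1 and 3 months out of the error, also for the counts and adjusted p per age given below. In separate fits with the early samples as 1 group, 1636 features were called at 6 months (651 higher, 985 lower). At 9 months 10927 were called (5659 higher, 5268 lower). With age as a random block, which lets samples of one age resemble each other, 333 features (0.726%) had an adjusted p under 0.05 between late and early, 185 (0.404%) higher and 148 (0.323%) lower, and all 333 were among the 3774. When each age was reduced to 1 mean, leaving 2 values against 2, none passed by limma, and 3260 had an unadjusted p under 0.05.

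**Figure D1:**
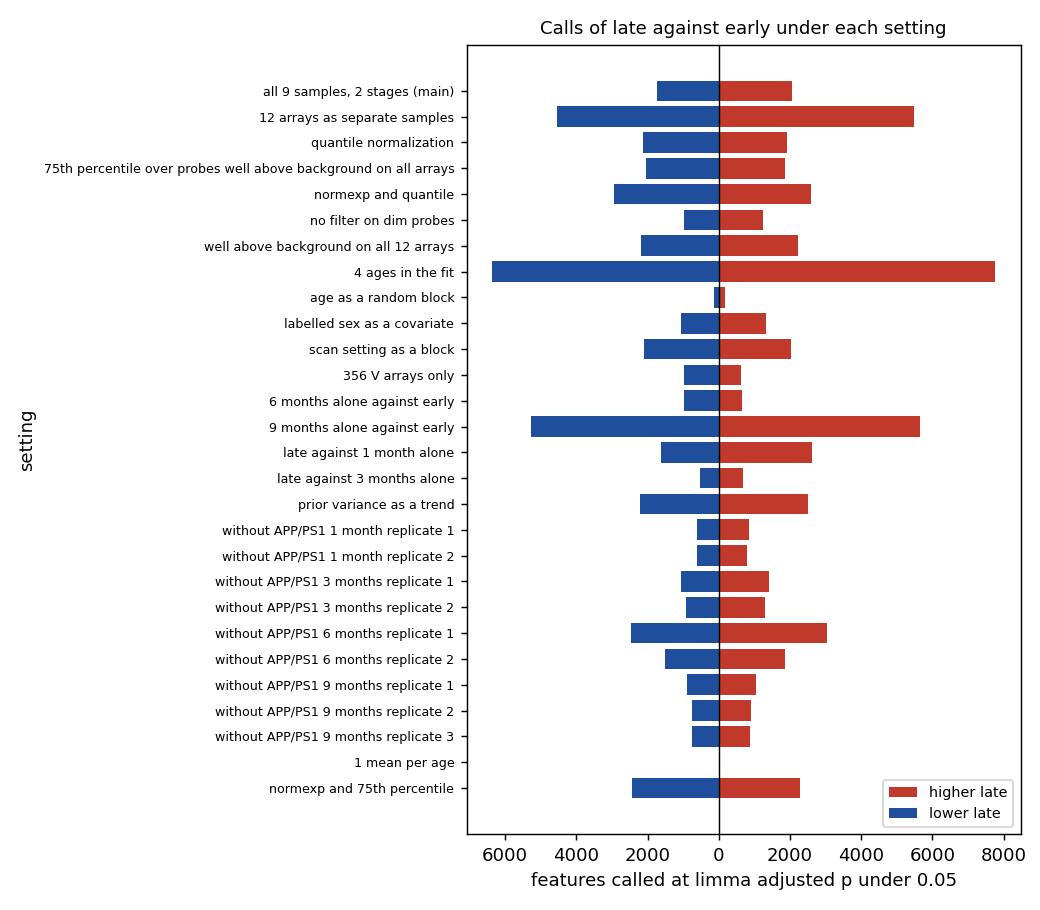
Number of features called between late and early APP/PS1 brain at a limma adjusted p under 0.05 (horizontal axis, higher at the late ages to the right in red, lower to the left in blue) under each setting of the analysis (vertical axis). The count ran from 0 with 1 mean per age and 333 with age as a random block to 14132 with 4 ages in the fit, against 3774 in the analysis reported.

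Among features that carry a gene symbol, 80 of the 112 on the arrays passed the filter on dim probes, and 5 of those (6.25%) were called: 4 higher and 1 lower at the late ages. That share lies near the 8.23% of all features. The higher ones were Amy2a5, a copy of the pancreatic alpha-amylase gene, B020031M17Rik, a gene known by its cDNA clone, Btbd35f4, an X-linked gene with a BTB domain, and Ccdc82, which encodes a coiled-coil protein. The lower one was the predicted gene Gm21953. Btbd35f4 passed the filter through the late ages alone, so its call is a description. In each of these 5 the late and early samples did not overlap, as was the case in 7 symbols with the late samples above and 3 with the late samples below. These 10 are 12.5% of the 80 symbols, beside 15.7% of all features.

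Amy2a5 stood at -0.85 and -1.13 at 1 month and at -1.01 and -0.99 at 3 months. It stood at 0.69 and 0.70 at 6 months and at -0.15, -0.01 and 0.01 at 9 months. All 5 late samples thus lay above all 4 early ones, with the 6-month samples highest. The difference was 1.24 (SE 0.20, adjusted p = 0.00959), or 2.37-fold, and this was the symbol that also passed with age as a random block (adjusted p = 0.047). The 6-month samples were 1.69 and the 9-month samples 0.94 above the shared early samples, and 9 months was lower than 6 months by limma (-0.75, adjusted p = 0.00326). Against the 3-month samples alone the difference was 1.25 with an adjusted p of 0.0695, and the call held with each sample left out. The pancreatic amylase genes exist in several similar copies, so the probe may read more than one of them.

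The RefSeq promoter window of Amy2a5 is shown because it is the gene with the firmest late-to-early difference; it covers the 250 bases before the start, on the minus strand at chr3:113258700-113258949 (GRCm38.p6). Capitals mark the single match to TATAAA, which ends 25 bases before the start.

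Amy2a5: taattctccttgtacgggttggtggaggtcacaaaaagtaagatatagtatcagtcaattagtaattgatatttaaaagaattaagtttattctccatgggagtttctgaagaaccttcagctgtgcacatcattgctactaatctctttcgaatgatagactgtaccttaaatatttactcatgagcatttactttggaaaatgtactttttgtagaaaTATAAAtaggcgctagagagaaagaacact

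TATAAA, searched on both strands, occurs in 12.4% of the 32841 promoter windows of this length. The match describes the window, and no measurement here bears on its use.

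B020031M17Rik, on chromosome 13, stood at 1.39 and 0.94 at 1 month and at 1.89 and 1.90 at 3 months. It stood at 2.28 and 2.76 at 6 months and at 3.06, 2.83 and 2.96 at 9 months. The lowest values were at 1 month and the highest at 9 months, with no overlap between stages. The difference was 1.25 (SE 0.23, adjusted p = 0.0157). At 6 months it was 0.99 and at 9 months 1.42 above the shared early samples, and the late ages did not differ past the threshold from each other (adjusted p = 0.138). Without replicate 1 at 1 month the adjusted p was 0.0514 at a difference of 1.20, and against 3 months alone it was 0.0816 at 0.88.

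Ccdc82, on chromosome 9, stood at 3.29 and 3.20 at 1 month, 3.76 and 3.73 at 3 months, 4.37 and 4.18 at 6 months and 4.24, 3.91 and 4.08 at 9 months. Within the early stage, the 3-month samples were already above the 1-month samples (0.50, adjusted p = 0.0446). The late-to-early difference was 0.66 (SE 0.15, adjusted p = 0.0326). Against 3 months alone it was 0.41 with an adjusted p of 0.165. The adjusted p was 0.0929 or 0.0895 without replicate 1 or 2 at 1 month, 0.0528 without replicate 2 at 6 months, and 0.0747 or 0.0702 without replicate 1 or 3 at 9 months.

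Btbd35f4, on the X chromosome, was dim. It passed the filter through the late ages alone, so its call and lack of overlap are a description and support nothing. It stood at -5.54 and -4.88 at 1 month and -4.92 and -5.17 at 3 months, where 1 of 6 arrays was well above background, and at -4.66 and -4.15 at 6 months and -4.06, -3.86 and -3.53 at 9 months, where all 6 were. The difference was 1.08 (SE 0.23, adjusted p = 0.0249), and it was 0.24 (adjusted p = 0.243) when the background was modelled by normexp before the same scaling. Leaving out either sample of 1 month (adjusted p = 0.0712 and 0.052), replicate 2 at 3 months (0.0596) or any sample of 9 months (0.0559, 0.065 and 0.0511) lost the call. The Btbd35f genes are a family of similar copies, which the probe may not tell apart.

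Gm21953, on chromosome 4, was the symbol that fell. It stood at 1.94 and 1.66 at 1 month and 1.76 and 1.71 at 3 months, and at 1.53 and 1.14 at 6 months and 1.33, 1.21 and 1.42 at 9 months. The difference was small, at -0.44 (SE 0.11, adjusted p = 0.0416), and alike at 6 months (-0.43) and 9 months (-0.45). Leaving out any sample other than replicate 1 at 6 months lost the call, with adjusted p from 0.0613 (without replicate 2 at 6 months) to 0.113 (without replicate 1 at 1 month).

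With the scan setting as a block, Amy2a5 (1.69, adjusted p = 0.000127) and Ccdc82 (0.78, 0.0417) passed. B020031M17Rik (0.99, adjusted p = 0.0681), Btbd35f4 (0.72, 0.108) and Gm21953 (-0.43, 0.101) kept their direction and did not pass. That fit leaves the late stage to 6 months, so its values are those of 6 months minus early. The same holds for the 356 V samples, within which Amy2a5 alone of these 5 passed (1.70, adjusted p = 0.00488). With 6 months alone against the early samples, Amy2a5 passed (1.69, adjusted p = 0.0045) and Ccdc82 did not (0.78, 0.116). With age as a random block B020031M17Rik, Ccdc82, Btbd35f4 and Gm21953 did not pass (adjusted p = 0.134, 0.19, 0.268 and 0.377), and against 3 months alone none of the 5 did (0.12 for Btbd35f4 and 0.153 for Gm21953).

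**Figure D2:**
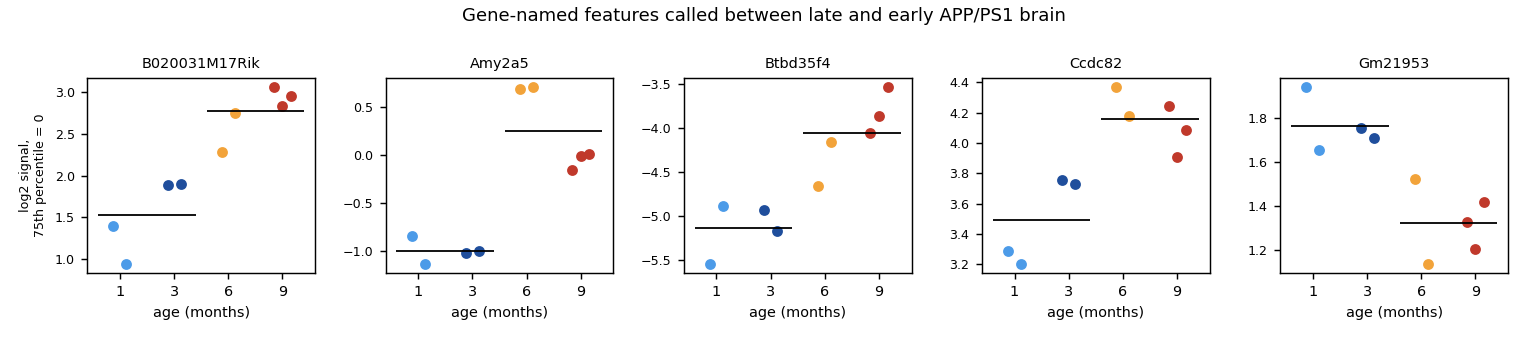
Log2 signal relative to the 75th percentile of each array (vertical axis) by age in months (horizontal axis) for the 5 gene-named features called between late and early APP/PS1 brain. Each point is 1 sample, and the lines are the means of the early (1 and 3 months) and late (6 and 9 months) samples. No late sample overlaps an early one, and Amy2a5 is highest at 6 months, at 0.69 and 0.70.

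Another 10 symbols had an adjusted p between 0.05 and 0.1. The nearest, named after their values were seen, were Gm10488 at 0.40 (adjusted p = 0.0512), Gm3286 at -0.62 (0.0528) and Gm6710 at 0.47 (0.0578). Gm3286 passed without replicate 1 at 6 months (-0.71, adjusted p = 0.0262), and Gm6710 without replicate 2 at 6 months (0.56, 0.0214).

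In a second set of symbols the 6-month and 9-month means lay on opposite sides of the early mean, and 9 months differed from 6 months at an adjusted p under 0.05. This held for 12 of the 80 symbols (15%), beside 12.2% of all features. Of these 12, 4 differed from the early samples at 6 months, 10 at 9 months and 3 at both ages, namely Gm13304, Fam205a2 and B2m. The 6 with the widest gap were Ccl28, Gm13304, Ccl21b, Ccl21c, Fam205a2 and B2m, and all were highest at 9 months. At 6 months Ccl28 was at -0.50 (adjusted p = 0.0805), Ccl21b at -0.55 (0.0609) and Ccl21c at -0.11 (0.664) from the early samples, none past the threshold. None of the 6 was called between late and early, with adjusted p between 0.172 and 0.514. Their 9-month values share the 354 V scan setting, from which age cannot be told apart there. Within the 356 V samples, whose late stage is 6 months alone, the late-to-early value was below 0. It lay between -0.64 for Ccl28 and -0.10 for Ccl21c, with no adjusted p under 0.05.

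Ccl28, a chemokine of mucosal and glandular epithelia, stood at -3.74, -4.08, -3.87 and -4.42 in the early samples and at -4.49 and -4.57 at 6 months. It stood at 0.67, 0.61 and 0.59 at 9 months. The 9-month samples were far above all others, and the 6-month samples lay just below the early ones. The probe was well above background on 5 of 6 early and on all 6 late arrays. The difference of 9 from 6 months was 5.15 (SE 0.17, adjusted p = 7.59e-06), while late against early was 2.59 (SE 1.25, adjusted p = 0.224).

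Ccl21b and Ccl21c encode the chemokine CCL21, which guides lymphocytes and dendritic cells to lymphoid tissue, and Gm13304 is listed in the reference table with Ccl21 names as synonyms. Gm13304 stood between -0.51 and -0.11 in the early samples, at -0.93 and -0.59 at 6 months, and at 4.32, 4.28 and 4.36 at 9 months. Ccl21b stood between -0.54 and -0.06 early, at -1.15 and -0.54 at 6 months, and at 4.22, 4.28 and 4.16 at 9 months. Ccl21c stood between 0.18 and 0.61 early, at 0.07 and 0.55 at 6 months, and at 4.48, 4.44 and 4.44 at 9 months. The 9-month samples of all 3 stood apart from a band that held the other 6 samples. The copies are near-identical, so these probes may read the same transcripts and do not count as separate observations.

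The promoter windows of Gm13304 and Ccl28, the widest shifts of this set, are shown for their sequence; both lie on the plus strand, at chr4:42114537-42114786 and chr13:119623569-119623818 (GRCm38.p6, RefSeq, 250 bases before the start).

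Gm13304: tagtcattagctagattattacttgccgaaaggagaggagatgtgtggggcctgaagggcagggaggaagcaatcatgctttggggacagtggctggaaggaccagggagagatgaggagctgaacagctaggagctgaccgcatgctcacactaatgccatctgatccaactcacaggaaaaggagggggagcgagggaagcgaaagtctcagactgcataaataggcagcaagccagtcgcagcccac

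Ccl28: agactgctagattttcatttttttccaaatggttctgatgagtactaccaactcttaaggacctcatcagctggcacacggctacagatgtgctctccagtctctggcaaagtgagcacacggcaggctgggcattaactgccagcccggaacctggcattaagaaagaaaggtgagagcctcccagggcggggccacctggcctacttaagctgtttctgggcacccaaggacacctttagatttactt

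Neither window holds TATAAA or CCAAT, which is in 33.9% of windows, on either strand. The motifs were chosen after the sequences were read, and no match says only that these letters are not in the windows. Over its promoter entry, Gm13304 was identical to Ccl21a, another copy, at 296 of 299 aligned bases (99%).

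B2m encodes the light chain of MHC class I, which presents peptides on most cells and is also used as a reference gene. It stood at 5.78 and 5.73 at 1 month, 6.46 and 6.42 at 3 months, 5.81 and 5.67 at 6 months, and 7.01, 6.99 and 6.95 at 9 months. It was therefore low at 1 and 6 months and high at 3 and 9 months, and the stages overlapped. It rose by 0.69 from 1 to 3 months (adjusted p = 0.0034), was 0.36 lower at 6 months and 0.88 higher at 9 months than the shared early samples (adjusted p = 0.0119 and 0.000134), and its late-to-early value was 0.39 (SE 0.35, adjusted p = 0.514). Fam205a2 stood at 2.14 and 2.02 at 1 month, 1.53 and 1.53 at 3 months, 1.33 and 1.12 at 6 months, and 3.25, 3.01 and 3.15 at 9 months. The 9-month samples were again highest, and 9 months exceeded 6 months by 1.91 (adjusted p = 6.39e-05).

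**Figure D3:**
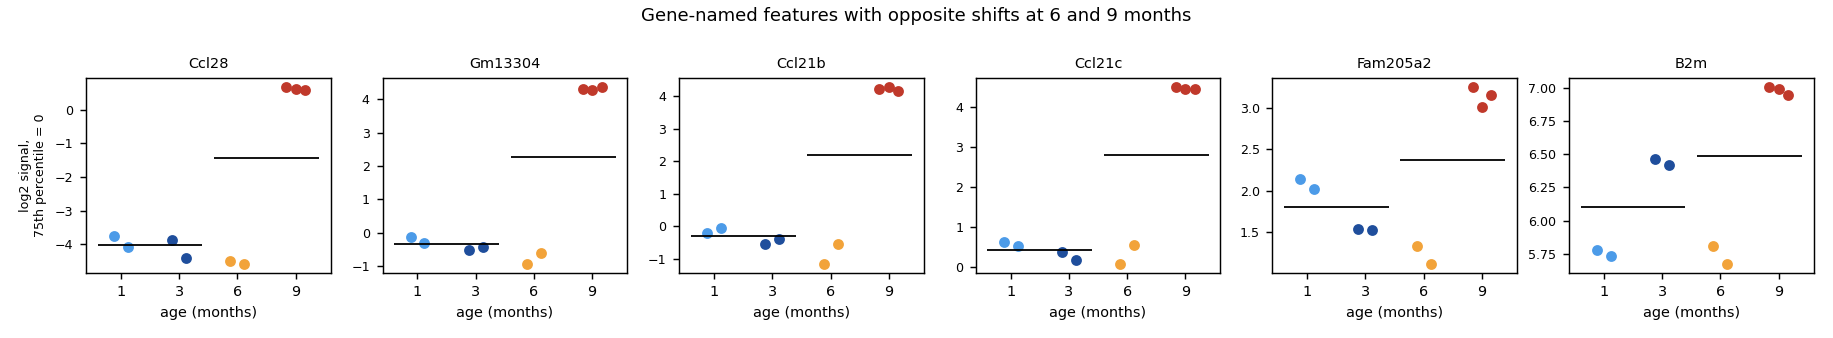
Log2 signal relative to the 75th percentile of each array (vertical axis) by age in months (horizontal axis) for the 6 gene-named features with the widest opposite shifts at 6 and 9 months. Points are samples and lines the means of the early and late samples; the 9-month points stand above the late mean and the 6-month points below it, as in Ccl28 with 0.59 to 0.67 against -4.57 and -4.49.

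Over all 80 symbols, 5 were higher and 7 lower at 6 months than the early samples, and 23 were higher and 11 lower at 9 months than those same samples. Over all features the shares were 10.7% higher and 8.59% lower at 6 months, and 18.9% higher and 17.7% lower at 9 months. The late ages differed in 20 of the symbols (25%), near the 23.9% of all features, and 15 of the 20 were higher at 9 months. Nim1k, which encodes a kinase related to AMPK, was 2.19 higher at 9 than at 6 months (adjusted p = 0.0169), and Spry3, a Sprouty-family inhibitor of receptor tyrosine kinase signalling, was lower (-0.84, adjusted p = 0.00167). Nim1k ranged from -4.39 to -3.07 in the samples up to 6 months and from -1.57 to -1.48 at 9 months. Without replicate 1 at 6 months its late-to-early value was 1.85 (adjusted p = 0.0264), against 1.36 (0.191) with all samples.

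**Figure D4:**
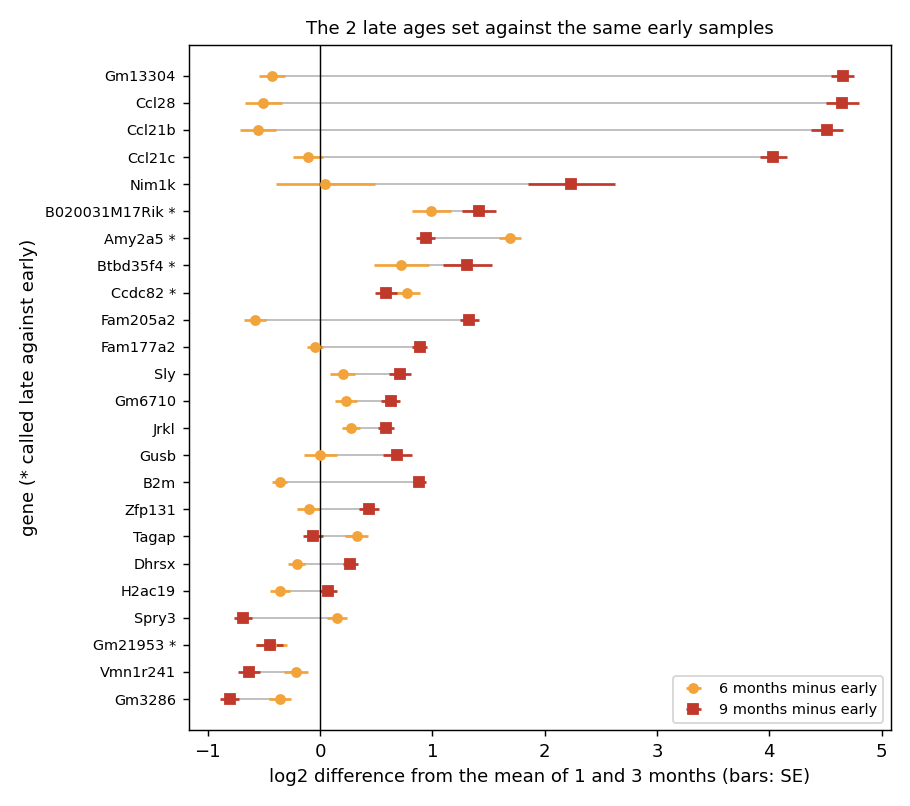
Log2 difference of 6 months (circles) and of 9 months (squares) from the mean of the same early samples (horizontal axis, bars give the SE) for gene-named features (vertical axis) that differed between the late ages or were called late against early (asterisk). Gm13304 lies at -0.43 and 4.65 and Amy2a5 at 1.69 and 0.94, so the late ages differ in sign for the former and in size for the latter.

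Several of these genes lie close together in the gene order of the reference table, and their values are given by location. On chromosome 13 the order is Ccl28, Hmgcs1, Nim1k, Zfp131, Tcstv1 and B020031M17Rik. Hmgcs1, an enzyme of cholesterol synthesis between Ccl28 and Nim1k, stood at 0.17 between late and early (adjusted p = 0.209) and differed by 0.01 between 9 and 6 months. Zfp131, a zinc finger gene, was 0.54 higher at 9 than at 6 months (adjusted p = 0.0132), and Tcstv1 was at -0.16 between late and early (adjusted p = 0.82). Neighbours thus had unlike values. On chromosome 4 the order is Gm13304, Gm13305, Ccl21b, Gm21953 and Fam205a2, where Gm13305 was at 0.01 between late and early (adjusted p = 0.985) beside Gm13304 and Ccl21b, which were over 4 higher at 9 months, and Gm21953, which fell. On chromosome 9 Jrkl lies next to Ccdc82 and was at 0.46 (adjusted p = 0.097).

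The features with the widest differences carry no gene symbol and are known by the code of their probe. In what follows they are named by that code, since the sources used here give neither their position nor their sequence. Among called coded features that were well above background on all 12 arrays and whose stages did not overlap (1652 higher and 1618 lower), the 5 with the widest rise all belong to the class whose codes begin with ASMM9PARTA. That class makes up 94.6% of those 1652, 92.3% of those 1618 and 89.7% of all features tested. The 5 with the widest fall hold 4 of that class and 1 probe for the exon of a long intergenic noncoding RNA (lincRNA), MM9LINCRNAEXON12015-_P1.

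MM9LINCRNAEXON12015-_P1 stood at 1.31, 1.33, 1.32 and 1.35 in the early samples. It stood at -2.20 and -2.28 at 6 months and at -1.58, -1.82 and -1.68 at 9 months. The early samples agreed within a few hundredths, and both late ages lay below them. It fell by 3.24 (SE 0.16, adjusted p = 4.1e-05), or 9.47-fold, and it also passed with age as a random block (adjusted p = 0.000978) and within the 356 V samples (-3.57, adjusted p = 0.000351). The 9-month samples were 0.55 above the 6-month samples (adjusted p = 0.00625). The probe for the opposite strand of this exon did not pass the filter on dim probes.

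ASMM9PARTA031095 was the higher feature with the steadiest late values. It stood at -3.01 and -2.96 at 1 month and -1.57 and -1.44 at 3 months, and at 1.27 and 1.15 at 6 months and 1.07, 0.94 and 0.97 at 9 months. It rose by 3.32 (SE 0.34, adjusted p = 0.0015, and 0.0123 with age as a random block), and 3 months was already 1.48 above 1 month (adjusted p = 0.000356). ASMM9PARTA038738 went through a wider range, from -4.39 and -4.07 at 1 month and -0.59 and -0.51 at 3 months to 2.46 and 2.28 at 6 months and 1.68, 1.55 and 1.65 at 9 months. Its difference of 4.31 (SE 0.84, adjusted p = 0.0184) was the widest of the 10 (adjusted p = 0.0667 with age as a random block), and the step from 1 to 3 months was 3.68 (adjusted p = 3.52e-05). Without replicate 2 at 1 month its adjusted p was 0.0543 at a difference of 3.75, and within the 356 V samples it was 4.82 (adjusted p = 0.125).

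In another 2 higher features the 9-month samples exceeded the 6-month samples. ASMM9PARTA030642 was at -4.46 to -3.67 early, at -2.11 and -2.71 at 6 months and at 0.60, 0.19 and 0.89 at 9 months. ASMM9PARTA029884 was at -3.55 to -2.59 early, at -1.59 and -1.62 at 6 months and at 2.34, 2.53 and 0.83 at 9 months. Both late ages lay above the early samples, and 9 months exceeded 6 months by 2.97 (adjusted p = 0.000404) and 3.51 (adjusted p = 0.0034). ASMM9PARTA030642 rose by 3.49 (SE 0.75, adjusted p = 0.0265). Its adjusted p was 0.0746 or 0.0774 without replicate 1 or 2 at 1 month, 0.0573 without replicate 2 at 3 months, and 0.0593, 0.067 or 0.0587 without replicate 1, 2 or 3 at 9 months. ASMM9PARTA029884 rose by 3.57 (SE 0.91, adjusted p = 0.0454). Its adjusted p was 0.113 or 0.111 without replicate 1 or 2 at 1 month, 0.0753 or 0.0865 without replicate 1 or 2 at 3 months, and 0.0895, 0.0901 or 0.1 without replicate 1, 2 or 3 at 9 months. With the scan setting as a block, which leaves the late stage to 6 months, it was 1.47 (adjusted p = 0.097). In ASMM9PARTA034233 the late ages did not differ past the threshold (adjusted p = 0.233). It was at -4.27 to -3.59 early and at 0.94, 0.47, 0.78 and 1.31 in 4 late samples, while replicate 1 at 6 months stood at -2.40. Its difference was 4.15 (SE 0.67, adjusted p = 0.00957), and 3.21 (adjusted p = 0.12) within the 356 V samples. With age as a random block none of these 3 passed: the adjusted p was 0.112 for ASMM9PARTA030642, 0.216 for ASMM9PARTA029884 and 0.179 for ASMM9PARTA034233. With normexp and quantile normalization ASMM9PARTA029884 did not pass (adjusted p = 0.0504), and the other rises were smaller, at 1.98 for ASMM9PARTA030642, 2.68 for ASMM9PARTA034233, 3.36 for ASMM9PARTA038738 and 2.63 for ASMM9PARTA031095.

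Among the lower features ASMM9PARTA007801, ASMM9PARTA000310, ASMM9PARTA000308 and ASMM9PARTA019172 fell, with differences of -2.93, -2.59, -2.50 and -2.51. ASMM9PARTA007801 stood at -1.45 and -1.15 at 1 month, -0.31 and -0.83 at 3 months, -4.01 and -3.79 at 6 months and -3.71, -3.99 and -3.80 at 9 months. The late samples lay in a narrow band, the early ones in a wider one. ASMM9PARTA019172 went further down at 9 months, at -4.48, -3.92 and -4.06, than at 6 months, at -3.18 and -3.17 (9 minus 6 months -0.98, adjusted p = 0.00878). All 4 had an adjusted p between 0.000369 and 0.00179, passed with each sample left out, within the 356 V samples and with age as a random block. Their size depended on the background correction: with normexp and quantile normalization the differences were -1.66, -1.40, -1.19 and -1.36, in the order above, with adjusted p between 0.000261 and 0.000432. ASMM9PARTA000308 and ASMM9PARTA000310 have codes close in number, and ASMM9PARTA000311, named for its code after its value was seen, was at -2.11 (adjusted p = 0.0159, and 0.274 with age as a random block), while ASMM9PARTA000309 did not pass the filter on dim probes. Whether near code numbers mean near positions is not given in the sources used here.

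Other coded features were well above background on all 6 arrays of one stage and on no array of the other: 50 among those called higher and 9 among those called lower at the late ages. They entered the analysis through the stage where they are bright, so their counts and calls are a description and support nothing. For these a fold has only a lower bound, set against the dimmest signal that counts as well above background. The widest bounds upward were ASMM9PARTA030350, at least 8.66-fold higher, ASMM9PARTA024523, at least 7.57-fold, and ASMM9PARTA051372, at least 3.91-fold. The widest downward were ASMM9PARTA015015, at least 12.3-fold lower, ASMM9PARTA000047, at least 3.64-fold, and ASMM9PARTA002051, at least 2.98-fold. These bounds hold for the processed signal as scaled here. With normexp, whose offset of 50 draws dim signals together, and quantile normalization the fitted log2 differences were 1.91, 1.46 and 1.07 for the 3 higher and -1.86, -0.83 and -0.77 for the 3 lower features, each under the log2 bound (3.12, 2.92 and 1.97, and 3.62, 1.86 and 1.57). ASMM9PARTA015015 stood at -1.51, -1.66, -1.02 and -1.38 early and was not well above background on any late array, where its measured mean was -6.74 ± 0.49 (SD, n = 5). ASMM9PARTA030350 was the reverse, at -1.15 and -1.26 at 6 months and -1.68, -1.44 and -2.34 at 9 months, against a measured early mean of -6.98 ± 0.26 (SD, n = 4). ASMM9PARTA051372 reached -1.49, -1.50 and -1.38 at 9 months but -4.58 and -4.68 at 6 months, nearer to its early values of -6.30 to -5.39. It did not pass without any one sample of 1, 3 or 9 months (adjusted p from 0.0928 without replicate 2 at 3 months to 0.109 without replicate 2 at 1 month), nor with age as a random block (0.173). Within the 356 V samples neither it (1.33, adjusted p = 0.0501) nor ASMM9PARTA024523 (3.11, 0.0723) passed.

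**Figure D5:**
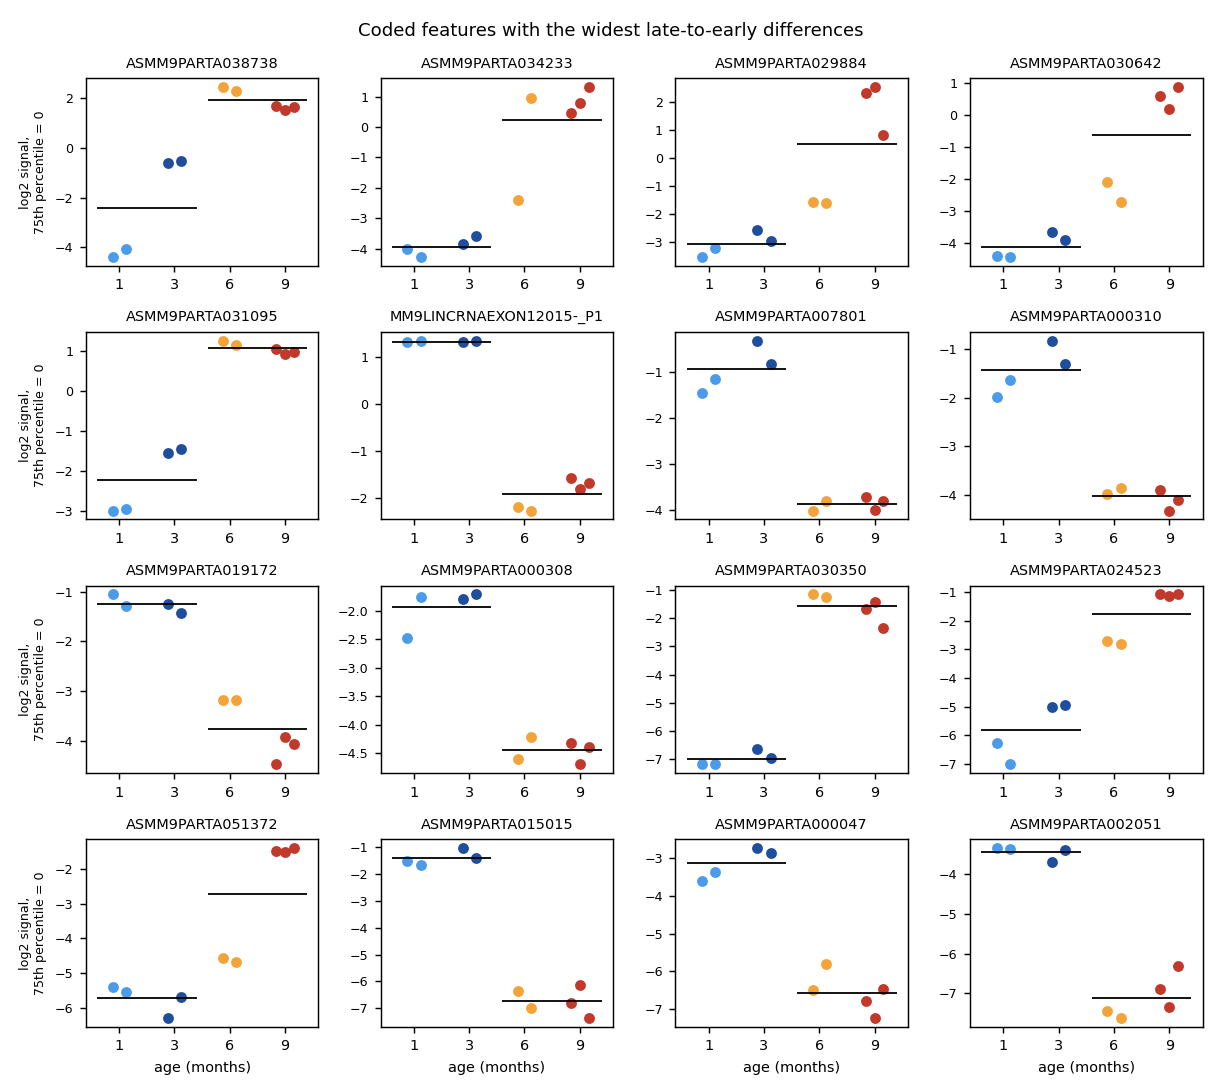
Log2 signal relative to the 75th percentile of each array (vertical axis, own scale in each panel) by age in months (horizontal axis) for 16 coded features with wide late-to-early differences; the last 6 panels hold features not well above background in one stage. Points are samples and lines the early and late means. MM9LINCRNAEXON12015-_P1 goes from 1.31 to 1.35 early to below -1.5 late, while ASMM9PARTA034233 has 1 late sample at -2.40.

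By class of probe, ASMM9PARTA codes made up 41115 of the features tested and 8.54% of them were called (1924 higher, 1586 lower). Of 2397 lincRNA exon probes, 6.80% were called, with 73 higher and 90 lower. Probes for mouse lincRNAs (344 tested, 1.16% called) and probes named for human lincRNAs (555 tested, 2.70% called) had shares below the 8.23% of all features, and probes for ultraconserved elements, stretches of genome kept identical between mammals, had 5.19% of 443. Those named by a sequence record had 5.14% of 797 and those for transcript models 12.5% of 104. The classes share arrays and differ in brightness, and the difference between their shares was not tested.

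Some regions were probed on both strands. In 855 lincRNA exon regions with both strands tested, 738 had no call, 107 had a call on 1 strand and 10 on both. In those 10 the strands went the same way. Across the 855 regions the late-to-early values of the strands, read on the same arrays, correlated weakly (Pearson's r = 0.118, a description). The share called was 6.80% among all lincRNA exon probes and 8.23% among all features. A strand that missed the threshold is not shown to differ from its partner, and the difference between strands was not tested. The 10 regions called on both strands include MM9LINCRNAEXON11077, MM9LINCRNAEXON11078 and MM9LINCRNAEXON11079, whose code numbers follow one another. Their 6 probes were all higher at the late ages, by 0.68 to 1.02. The minus-strand probe of MM9LINCRNAEXON11077 was well above background on 2 early and all 6 late arrays. It entered the analysis through the late ages alone, so the call of this region on both strands is a description. MM9LINCRNAEXON11078+_P1 stood at 1.44 and 1.47 at 1 month, 1.64 and 1.59 at 3 months, 2.49 and 2.55 at 6 months and 2.18, 2.12 and 2.19 at 9 months. MM9LINCRNAEXON10093 was lower on both strands, at -0.89 and -0.86 (adjusted p = 0.0085 and 0.00664). With age as a random block neither strand of MM9LINCRNAEXON10093 passed (adjusted p = 0.0826 and 0.0557), and 4 of the 20 probes of these 10 regions did. These 20 were picked because they were called late against early. With the block, 8.82% of the 3774 called features and 0.726% of all features passed, so nothing is read from that count. The regions named here and in the next paragraph were chosen after their values were seen.

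Of the 443 ultraconserved probes tested 5.19% were called, beside 8.23% of all features. Among 117 ultraconserved regions with both strands tested, 105 had no call, 11 had a call on 1 strand and 1 on both. The last was uc.430. Its plus-strand probe entered the analysis through the late ages alone, so the call on both strands is a description. Its minus-strand probe uc.430- stood at -3.20 and -3.28 at 1 month, -2.73 and -2.50 at 3 months, -0.71 and -0.94 at 6 months and 0.51, 0.44 and 0.50 at 9 months. Each age lay above the one before it, and the late-to-early difference was 2.89 (SE 0.36, adjusted p = 0.00317). Its plus-strand probe uc.430+ was well above background on no early array and on all 6 late arrays, and was at least 1.84-fold higher late. With normexp and quantile normalization uc.430+ was fitted at 0.65 and uc.430- at 2.02. In the lincRNA class MM9LINCRNAEXON10518+_P1 was well above background on all early arrays and on no late array, and was at least 2.89-fold lower late, a bound that its fitted -0.68 with normexp and quantile normalization lies under. The exon with the preceding code, MM9LINCRNAEXON10517+_P1, fell by 1.35 (adjusted p = 0.00279, and 0.0713 with age as a random block). AK139568_P1, named for a cDNA record, stood at -2.42 and -2.47 at 1 month, -1.87 and -1.93 at 3 months, 0.81 and 0.63 at 6 months and -0.39, -0.34 and -0.45 at 9 months. Like Amy2a5 it was highest at 6 months, and it rose by 2.22 (SE 0.31, adjusted p = 0.00498).

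Of the gene lists, the 13 reference genes that passed the filter gave 0 calls between late and early, where 8.23% of all features were called, with values from -0.28 to 0.41 and a median of -0.01 beside 0.02 for all features. Gusb, the lysosomal beta-glucuronidase, had the value of 0.41 (adjusted p = 0.235) and Nono, a paraspeckle protein gene, that of -0.28 (adjusted p = 0.132). Of these 13, Gusb and B2m differed between 9 and 6 months, as did 23.9% of all features. The 3 chemokines tested (Ccl28, Ccl21b and Ccl21c) gave 0 calls with a median of 2.49 between late and early, made of -0.50 at 6 months and 4.51 at 9 months against the shared early samples. The list headed signalling regulators (Nim1k, Spry3, Tagap and Gk) gave 0 calls among 4, with 3 that differed between 9 and 6 months. The list headed membrane trafficking (Mia3, Vamp7, Brox and Tsnax) gave 0 among 4, from -0.29 for Tsnax to 0.45 for Vamp7, a vesicle SNARE. Gk, which encodes glycerol kinase, and Tsnax, which encodes a partner of translin, are not typical of these headings. Vamp7 had an adjusted p of 0.104, and of 0.05 at a value of 0.58 without replicate 1 at 3 months. The list headed Y-linked and germline genes gave 1 call, Btbd35f4, among 12, with a median of -0.11. Most of its tested members are vomeronasal receptor genes (Vmn1r), which are neither, so the median is not one of Y-linked or germline genes. At a share of 8.23%, lists of 3 to 13 features can hold 0 or 1 called member, so nothing is read from these counts.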

How the data were processed

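The deposited scanner files hold spot intensities that the submitters' processing notes credit to Agilent Feature Extraction (version 10.7.1.1). The processed signal used here is an intensity from which background had been subtracted and which had been spatially detrended, per the file headers. The deposited flags (well above background, outlier; values of 0 or 1) are those of the same software. A value table deposited for the series equalled the mean local background intensity of each spot in all 14 columns compared (largest difference 0) and held no expression values; its column medians were 27.9 to 36.8. That table has no further scale, centring or direction as expression.

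Control spots and the 1200 spots of negative probes were left out, which left 59994 spots. Processed signals were put on a log2 scale, the 75th percentile of each array subtracted, and spots of a probe averaged without outlier spots; 103 of 59709 probes with a rejected single spot were left out. Near-identical arrays were averaged: over negative probes the residuals of the 3 averaged pairs correlated at 0.80 to 0.825, against at most 0.216 in any other pair. Probes well above background on all 3 arrays of at least 1 age were kept, and the brightest probe stood for a symbol, giving 45842 features. Such a filter lets in features through the age where they are high. Symbols came from RefSeq identifiers matched to the reference table (GRCm38.p6, names and gene order only; the build of the array design is not given in the sources used here): 116 probes gave 112 symbols and 59593 had none. Where 3 symbols had several probes, these agreed in direction. All 15 reference genes printed 20 times were averaged over copies.

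Tests used limma 3.58.1 (lmFit, eBayes) in R 4.3.3 with Benjamini-Hochberg adjustment over all features and a threshold of 0.05. The code was also run on simulated data in which samples of one age did not resemble each other. That run cannot show how the fit behaves where they do, as here (consensus correlation 0.584). The fit for late against early had the 9 samples in 2 stages; the values per age came from a fit with 4 ages. Named genes were every called symbol, the 5 highest and 5 lowest coded features well above background on all arrays without overlap of stages, the 3 widest bounds in each direction, and 6 symbols with opposite shifts at 6 and 9 months; others are said to be chosen after their values were seen or belong to a list. The members and lists were chosen with earlier results of these data known. Promoters are RefSeq sequences. Alternatives were other normalizations, filters, models, subsets of ages, scan setting and each sample left out. Normexp (offset 50) used the median spot signal in place of the mean signal that had been planned. The number of arrays limits the precision.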

Additional observations from a re-analysis of the deposited data

Results flagged for a closer look

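Of 51 named features, many chosen for their values, 27 differed between 9 and 6 months (limma adjusted p under 0.05 for the difference itself), beside 10935 of all 45842 features (23.9%), and the scan setting cannot be told apart from 9 months in any of them. The gap of 9 minus 6 months was 5.15 for Ccl28, 5.08 for Gm13304, 5.06 for Ccl21b, 4.14 for Ccl21c, 1.91 for Fam205a2 and 1.24 for B2m. It was 2.19 for Nim1k, 0.68 for Gusb, 0.54 for Zfp131, 0.40 for Gm6710 and 0.31 for Jrkl. It was below 0 for Amy2a5 (-0.75), Spry3 (-0.84), Gm3286 (-0.45) and Vmn1r241 (-0.42). Among coded features it was 3.51 for ASMM9PARTA029884, 3.17 for ASMM9PARTA051372, 2.97 for ASMM9PARTA030642, 1.65 for ASMM9PARTA024523 and 0.55 for MM9LINCRNAEXON12015-_P1, and -0.75 for ASMM9PARTA038738 and -0.98 for ASMM9PARTA019172. It was 1.31 for uc.430-, 1.47 for uc.430+, -1.12 for AK139568_P1, -0.36 for MM9LINCRNAEXON11078+_P1 and -0.35 for MM9LINCRNAEXON10093-_P1.

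A single sample lay far from the rest of its stage in 4 of 102 groups of samples tested, where chance gives about 1 in 20 groups. ASMM9PARTA034233 stood at -2.40 in replicate 1 at 6 months, against 0.47 in the next late sample. ASMM9PARTA000308 stood at -2.48 in replicate 1 at 1 month, against -1.79 in the next early sample. ASMM9PARTA002051 stood at -3.69 in replicate 1 at 3 months, against -3.38. Brox, a gene with a BRO1 domain, stood at 4.13 in replicate 2 at 3 months, against 3.82.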

How the results depend on the processing

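The number of features called between late and early was 3774 (2050 higher, 1724 lower). It was 10023 (5485 and 4538) with the 12 arrays as separate samples, which counts near-identical arrays as independent, and 14132 (7765 and 6367) with 4 ages in the fit, which leaves the spread between ages out of the error. It was 333 (185 and 148) with age as a random block and 0 (0 and 0; 3260 at an unadjusted p under 0.05) with 1 mean per age, the latter chosen after the data were seen. It was 2217 (1247 and 970) with no filter on dim probes, where more features were tested, and 2394 (1327 and 1067) with labelled sex as a covariate. It was 1588 (616 and 972) for the 356 V arrays alone, 1636 (651 and 985) for 6 months alone, 10927 (5659 and 5268) for 9 months alone and 1221 (680 and 541) against 3 months alone. With normexp and quantile normalization 2957 were lower and 5537 called in all. Leaving out 1 sample gave 1411 to 5517 called, 785 to 3047 higher and 614 to 2470 lower. Where no construction is named, the cause was not tested. The count stayed within 1.5 times of 3774 under the other normalizations and filters, the scan block, 1 month alone as the early stage and a trended prior. The scan block leaves the late stage to 6 months. The share of calls that were higher was 54.3%, and 46.6% to 48.5% under other scalings.

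With the scan setting as a block, with the 356 V arrays alone and with 6 months alone, the following turned direction, in that order. Ccl28 was -0.50, -0.64 and -0.50. Gm13304 was -0.43, -0.45 and -0.43. Ccl21b was -0.55, -0.56 and -0.55. Ccl21c was -0.11, -0.10 and -0.11. Fam205a2 was -0.58 in all 3, and B2m -0.36 in all 3. Spry3 was 0.15, 0.16 and 0.15, and Zfp131 -0.10, -0.091 and -0.10. Each of these fits leaves the late stage to 6 months. Hmgcs1 was -0.023 with normexp and quantile normalization. No paired analysis was possible because all titles carry the same replicate number, so the numbers used here pair no samples. Features near background are limited by their signal: with normexp and quantile normalization the fitted differences of all 8 features given with bounds lay under those bounds, and those of the other wide coded features shrank, as given above.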
